A study of Mus musculus with 14 samples.

Results

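The miR-30 family was followed in plasma across healthy mice and mice with osteosarcoma (OS). Its members were taken by name, as every well listed as miR-30a, miR-30b, miR-30c, miR-30d or miR-30e on either arm, which gave 9 of 389 named miRNAs. These are the 5 guide strands mmu-miR-30a, mmu-miR-30b, mmu-miR-30c, mmu-miR-30d and mmu-miR-30e (written without the mouse prefix from here on), and the 4 passenger strands miR-30a*, miR-30c-2*, miR-30d* and miR-30e*. All 9 passed the filter on missing values, as did 388 of the 389 named. The control group held 6 wild-type littermates without disease (by the methods, with both Trp53 copies intact and carrying Cre). The OS group held 8 tumor-bearing mice of a genetically engineered mouse model (GEMM), in which a germline Col-α1(I) promoter drives Cre in osteoblasts and deletes 1 or both floxed Trp53 alleles there. Which of these mice had lost 1 copy and which both, and the age of each mouse, are not given in the sources used here. Blood of the mice with OS was drawn once a tumor had formed, and each sample is the plasma of 1 mouse.

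The miR-30 family is named for a common seed, the bases near the 5′ end of a miRNA that pair with its target messenger RNAs. Members are made from hairpins at separate loci. In each hairpin one arm, the guide strand, is usually kept and loaded into Argonaute, and the opposite arm, the passenger strand (marked * in the older names used on the panels), is usually lost. The family is broadly expressed and abundant in many tissues. In bone-forming cells it is known to hold back differentiation by targeting Runx2 and Smad1, and elsewhere it is known for targeting Beclin 1 in autophagy (miR-30a) and Snai1 in epithelial cells.

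The mature strands are printed because the assays must tell them apart by a few bases. They are RefSeq sequences on GRCm38.p6, 5′ to 3′, with the seed (bases 2 to 8) in capitals. Entries were found for miR-30a, miR-30c and miR-30e and their passenger strands, and miR-30b and miR-30d are named only. The names without * were read as the 5p arms and the names with * as the 3p arms of these hairpins.
miR-30a-5p: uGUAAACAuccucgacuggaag
miR-30c-5p: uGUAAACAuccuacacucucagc
miR-30e-5p: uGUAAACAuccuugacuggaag
miR-30a-3p: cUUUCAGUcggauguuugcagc
miR-30e-3p: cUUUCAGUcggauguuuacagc
miR-30c-2-3p: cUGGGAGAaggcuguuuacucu
The 3 guide strands had the seed GUAAACA, and the passenger strands fell into another pair of seeds, UUUCAGU for miR-30a* and miR-30e* and UGGGAGA for miR-30c-2*. With positions counted from 1 at the 5′ end, miR-30a-5p and miR-30e-5p differed by 1 base of 22, C13U, and their passenger strands by 1 base of 22, G18A. miR-30c-5p differed from miR-30a-5p at 5 of the 22 positions compared, all after the first 12 bases. Whether a well for one member also reads its near neighbour was not tested.

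The hairpins show where both arms lie, with the arms in capitals.
Mir30a: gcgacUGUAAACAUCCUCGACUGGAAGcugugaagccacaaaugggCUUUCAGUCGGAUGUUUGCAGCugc
Mir30c-2: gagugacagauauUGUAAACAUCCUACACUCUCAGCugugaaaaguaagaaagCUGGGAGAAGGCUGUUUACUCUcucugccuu
Mir30e: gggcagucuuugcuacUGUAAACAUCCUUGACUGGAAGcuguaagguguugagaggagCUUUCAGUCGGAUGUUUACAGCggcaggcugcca
Mir30a (chr1:23272269-23272339, plus strand) and Mir30c-2 (chr1:23291701-23291784, plus strand) are neighbours on chromosome 1 and overlap no other annotated gene. Mir30e (chr4:120772606-120772697, minus strand) overlaps Nfyc and Mir30f on chromosome 4, beside Mir30c-1, which has the same guide strand as Mir30c-2. Mir30b and Mir30d are neighbours on chromosome 15. The miR-30c well therefore reads a strand made at 2 loci, and the miR-30c-2* well a strand made at 1 of them.

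Levels are given as normalized log2 values, the mean quantification cycle (Cq) of all 388 retained miRNAs in a mouse minus the Cq of the member, so that 1 unit stands for a doubling and a higher value for more miRNA. The mean Cq lay between 30.6 and 32.8 in controls and between 31.7 and 32.9 in mice with OS. Wells left blank made up 13.9% to 24.7% of the 768 wells per mouse. All 9 marker miRNAs of blood cells and liver that were looked up were detected in 14 of 14 mice, with the red blood cell miRNA miR-451 never under percentile 98.3 of level and miR-142-3p of white blood cells, the lowest of them, never under percentile 69.2. Haemolysis was marked by how many cycles earlier miR-451 was read than miR-23a (more cycles with more lysed red cells), 5.77 ± 1.43 cycles over 6 controls and 4.19 ± 1.94 over 8 mice with OS (mean ± SD). A pair of mice stood apart in several members. Control replicate 1, with a mean Cq of 32.8, had the lowest control level in all 7 members it gave a value for. OS replicate 10, with the lowest haemolysis marker (1.05), was the highest of the OS mice in miR-30a*, miR-30b, miR-30c-2*, miR-30d and miR-30d* and the lowest in miR-30e and miR-30e*.

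miR-30c and miR-30b were the most abundant members in plasma, and the other guide strands followed in the order miR-30a, miR-30d and miR-30e. miR-30c, which is known to target Runx2, had a mean level of 5.99 ± 0.86 and miR-30b one of 5.95 ± 0.81 (SD, n = 14 mice), and both lay above the 83rd percentile of all miRNAs in every mouse. miR-30a was at 2.82 ± 0.43, miR-30d at 1.80 ± 0.79 and miR-30e at 0.66 ± 0.80 (SD, n = 14). The step from miR-30b to miR-30a was 3.13 ± 0.76 cycles and was seen in 14 of 14 mice (exact sign-flip permutation test over mice, two-sided, p = 0.00012, the smallest that 14 mice allow, and 0.00049 adjusted over 4 neighbour pairs). miR-30a was above miR-30d by 1.02 ± 0.75 cycles in 13 of 14 mice, and miR-30d was above miR-30e by 1.14 ± 1.24 cycles in 13 of 14 (exact permutation test, adjusted p = 0.0011 for each). miR-30c and miR-30b differed by only 0.047 ± 0.44 cycles, within their spread, with miR-30c higher in 8 of 14 mice (exact permutation test, p = 0.698). The pairs and their direction were taken from the mean levels in these same 14 mice, so the p-values are no independent test of the order. These are orders of assay readings, since amplification can differ between primer sets. The guide strands were all on panel I. If every assay doubled in each cycle, miR-30b and miR-30c together made up 74.9% to 95.4% of the summed guide strand signal in a mouse, with a median of 91.7%, and the lowest share was that of OS replicate 17.

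**Figure D1:**
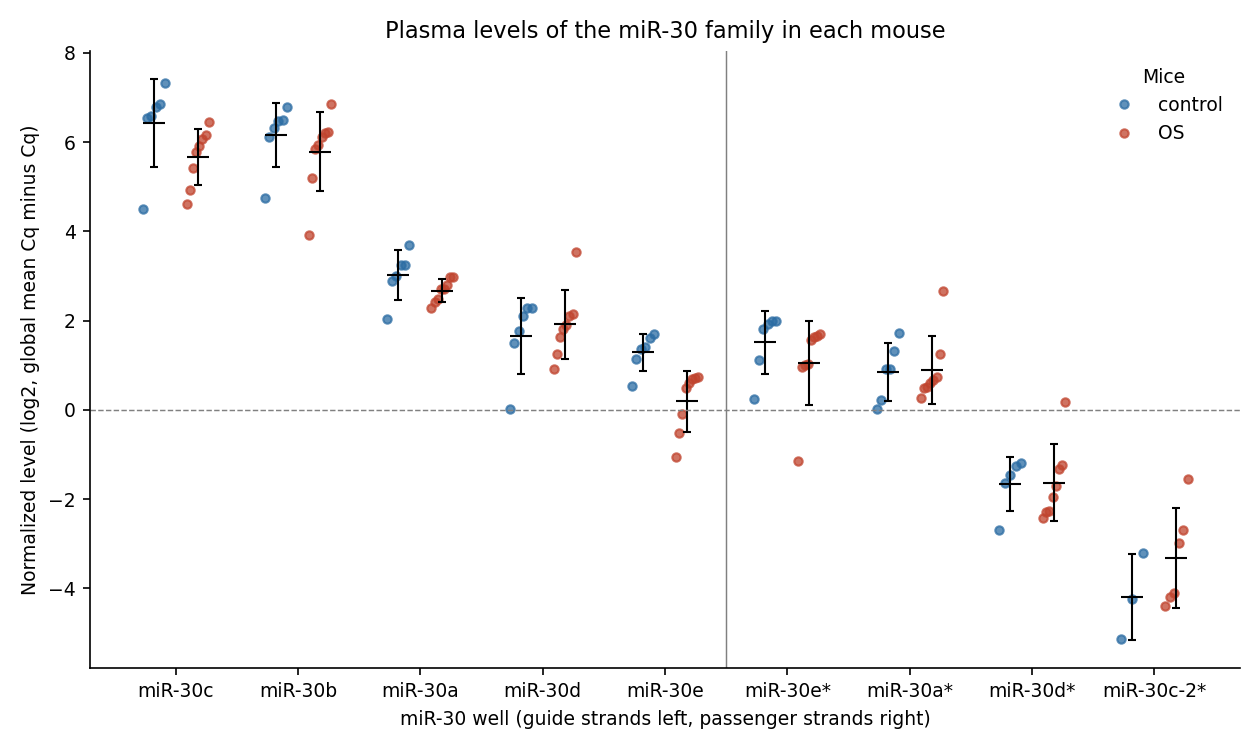
Normalized log2 level (global mean Cq minus Cq) of each miR-30 well, guide strands on the left and passenger strands on the right. Points are mice (6 control in blue, 8 OS in red, fewer where a value was missing), horizontal marks are group means and bars are SD. miR-30c and miR-30b lie near 6, miR-30c-2* lies between -5.13 and -1.54, and the low control point in miR-30b, miR-30c and miR-30d is control replicate 1.

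The passenger strands covered a wide range. miR-30e* had a mean level of 1.24 ± 0.85 and miR-30a* of 0.87 ± 0.69 (SD, n = 14). miR-30d*, detected in 13 of 14 mice, was at -1.64 ± 0.74 (SD, n = 13). miR-30c-2* was the scarcest, at -3.61 ± 1.09 (SD, n = 9) in the mice with a Cq of 37 or less, and had no value in 3 of 6 controls and 2 of 8 mice with OS. Its mean covers only the mice in which it could be read.

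None of the 9 miR-30 wells passed the test between mice with OS and controls (limma, adjusted p under 0.05), where 12.6% of 388 miRNAs did, 6.19% higher and 6.44% lower in OS. The methods' t-test also called 0 of the 9 after adjustment, where it called 6.19% of all miRNAs, 2.58% higher and 3.61% lower. The methods also set a fold-change rule and a stricter adjusted p, and filled missing values before testing. None of these was applied here, so the shares are not the study's own. At an unadjusted p under 0.05, 1 of the 9, miR-30e, passed with limma and with the methods' t-test, against 30.7% and 27.6% of all miRNAs. Of the log2 differences, 5 were below 0 and 4 above, from -1.09 to 0.87. Their median was -0.35, beside -0.0027 over all 388 miRNAs, and single mice moved it, to -0.55 without control replicate 1, -0.21 without control replicate 2, -0.23 without OS replicate 10 and -0.094 without OS replicate 17. In plasma, fewer releasing cells and less miRNA released per cell cannot be told apart.

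miR-30e, whose gene overlaps Nfyc, came nearest to the threshold. Its level in controls ran from 0.52 over a median of 1.39 to 1.69, and in OS from -1.06 over a median of 0.55 to 0.74. Control replicate 1 was the single control inside the OS range, and 4 of 8 mice with OS lay below every control. The log2 difference was -1.09, a 2.14-fold lower mean in OS (standard error 0.36, 95% confidence interval -1.85 to -0.34, limma adjusted p = 0.0504). An exact permutation test over the 3003 splits of the mice gave p = 0.0053, unadjusted. The value passed when scaled to all wells (limma adjusted p = 0.0421), with missing values filled by the group mean (0.0495), among only the miRNAs measured in every mouse (0.0371), and on leaving out OS replicate 15 (0.0385), OS replicate 17 (0.0424), control replicate 1 (0.0342) or both mice that stood apart (0.0422). It did not pass in the other alternatives, among them leaving out OS replicate 10, the mouse with the lowest level (-0.91, limma adjusted p = 0.0860), or control replicate 3 (-1.01, 0.122), scaling to the reference miRNAs (-1.15, 0.117), panel centring (-0.85, 0.0965) and unscaled Cq (-1.53, 0.0840). The OS mice with the lowest miR-30e, replicates 10, 12 and 19, had haemolysis markers of 1.05, 2.59 and 4.42. The controls with the highest markers, replicates 3, 13 and 14 (7.03, 7.21 and 6.88), had the highest levels of all mice (1.69, 1.60 and 1.41). OS replicate 18, with a marker of 6.85, was at 0.60. OS replicate 17, the highest of the OS mice at 0.74, had a marker of 4.26, and control replicate 4, at 1.15, one of 4.11. A fit with the haemolysis marker as covariate gave a difference of -0.68 (limma adjusted p = 0.279), and leaving out control replicates 3 and 13, whose markers were above 7, gave -0.93 (limma adjusted p = 0.204). The part of haemolysis in the miR-30e levels was not tested.

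miR-30c differed by -0.77 on the log2 scale (standard error 0.43, 95% confidence interval -1.67 to 0.13, limma adjusted p = 0.230). Controls ran from 4.50 over a median of 6.69 to 7.32 and mice with OS from 4.61 over 5.84 to 6.45, so that 5 of 6 controls lay above every mouse with OS and control replicate 1 lay below them all. Without control replicate 1 the difference was -1.15 and passed (limma adjusted p = 0.0431), and 2 of 9 members, miR-30c and miR-30e, were then lower, where 14.2% of all miRNAs were called, 5.93% higher and 8.25% lower. Without both mice that stood apart it was -1.22 (limma adjusted p = 0.0406).

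The other guide strands had intervals that held 0. miR-30a ran from 2.03 over 3.13 to 3.70 in controls and from 2.29 over 2.71 to 2.97 in OS, a difference of -0.35 (95% confidence interval -0.99 to 0.29). It was -0.55 without control replicate 1 and -0.21 without control replicate 2. Its spread was 0.56 among controls, or 0.31 without control replicate 1, and 0.25 among mice with OS (SD). miR-30b, at 4.75 to 6.79 in controls and 3.92 to 6.86 in OS, differed by -0.37 (interval -1.29 to 0.55), by -0.65 without control replicate 1, by -0.24 without control replicate 4 and by -0.094 without OS replicate 17. miR-30d, at 0.023 to 2.29 in controls and 0.92 to 3.54 in OS, differed by 0.26 (interval -0.66 to 1.17), by -0.068 without control replicate 1, by 0.39 without OS replicate 18 and by 0.031 without OS replicate 10. Limma adjusted p for these 3 lay between 0.460 and 0.725.

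The passenger strands did not pass either. miR-30a* and miR-30d* differed by 0.048 and 0.024 on the log2 scale, with the groups lying over each other, and the sign turned when each panel was centred on its own mean (-0.39 and -0.42) and when OS replicate 10 was left out (-0.20 and -0.23). miR-30e* differed by -0.47 (95% confidence interval -1.41 to 0.48), by -0.15 without OS replicate 10 and by -0.72 without control replicate 1. miR-30c-2* had the widest interval, 0.87 with -0.58 to 2.32, from 3 controls and 6 mice with OS, and was 0.52 without OS replicate 10, 0.40 without control replicate 2 and 1.36 without control replicate 13. Limma adjusted p lay between 0.417 and 0.980 for these 4.

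**Figure D2:**
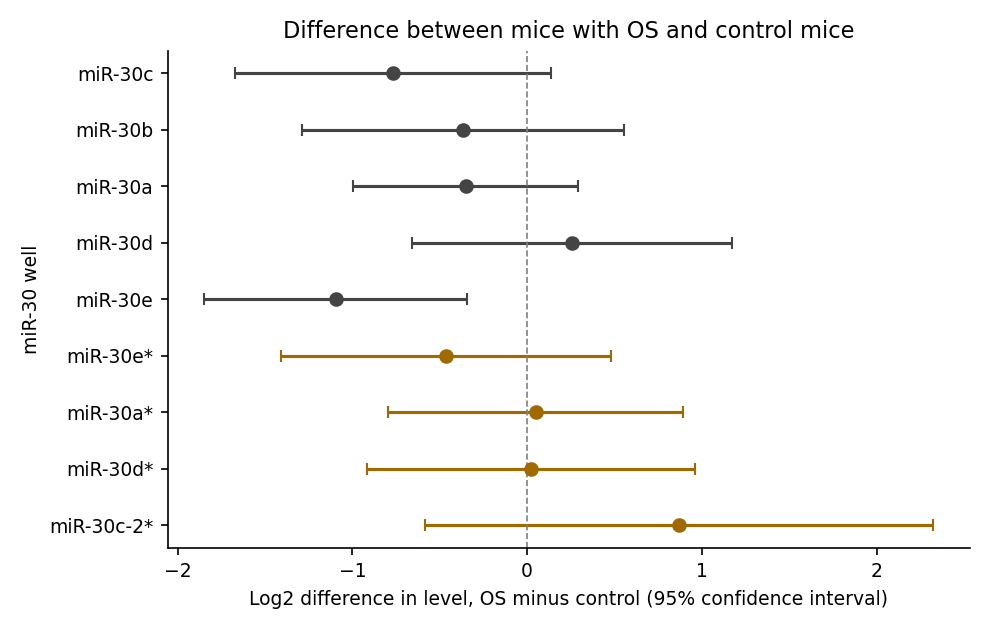
Log2 difference in normalized level, OS minus control, for each miR-30 well (limma, up to 6 control and 8 OS mice). Points are estimates and bars 95% confidence intervals, in grey for guide and brown for passenger strands. The interval of miR-30e, -1.85 to -0.34, is the only one that leaves out 0, and its adjusted p is 0.0504.

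Within a mouse, the guide strands were compared with each other by their Cq difference, which does not depend on the scaling. miR-30b and miR-30c kept the closest ratio, with an SD of 0.44 over the 14 mice, which put it at percentile 0.548 among all pairs of miRNAs. The 10 pairs had a median SD of 0.80, from 0.44 to 1.24, where all 37950 pairs of the 276 miRNAs measured in every mouse had a median of 1.30. That background was not matched for panel or level. It takes in pairs across both panels and scarce miRNAs, while the guide strands were all on panel I, so the contrast may overstate their closeness. In other families with a shared seed the median was 0.94 for the let-7 family (21 pairs), 0.87 for the miR-15/16 family (10 pairs) and 0.71 for the miR-29 family (3 pairs), so miR-30 lay among them.

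The ratios were then compared between groups, a test added after the data had been seen. None passed after exact permutation and adjustment over the 10 pairs, and 3 passed unadjusted, all of them with miR-30d or miR-30e. miR-30d lay 0.37 ± 0.47 cycles above miR-30e in the 6 controls (mean ± SD), over a range of -0.50 to 0.87. In the 8 mice with OS it lay 1.72 ± 1.34 above, over a range of 0.32 to 4.60. All but 1 of the mice with OS, replicate 18, lay above every control (difference 1.35, exact permutation test p = 0.0173, adjusted p = 0.0866). miR-30a minus miR-30e, the pair set apart by C13U, was 1.73 ± 0.39 in controls and 2.48 ± 0.60 in OS (difference 0.74, exact permutation p = 0.0140, adjusted p = 0.0866). miR-30c minus miR-30d was 4.78 ± 0.58 in controls and 3.75 ± 0.90 in OS (difference -1.03, exact permutation p = 0.0346, adjusted p = 0.115). Without OS replicate 18 these 3 pairs passed (exact permutation, adjusted p 0.0291 to 0.0486). They did not pass when any other single mouse was left out. Without OS replicate 10 the difference for miR-30d minus miR-30e was 0.94 (exact permutation, adjusted p = 0.0903), without both mice that stood apart it was 0.77 (0.167), and without the mice over the haemolysis limit 1.44 (0.258).

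**Figure D3:**
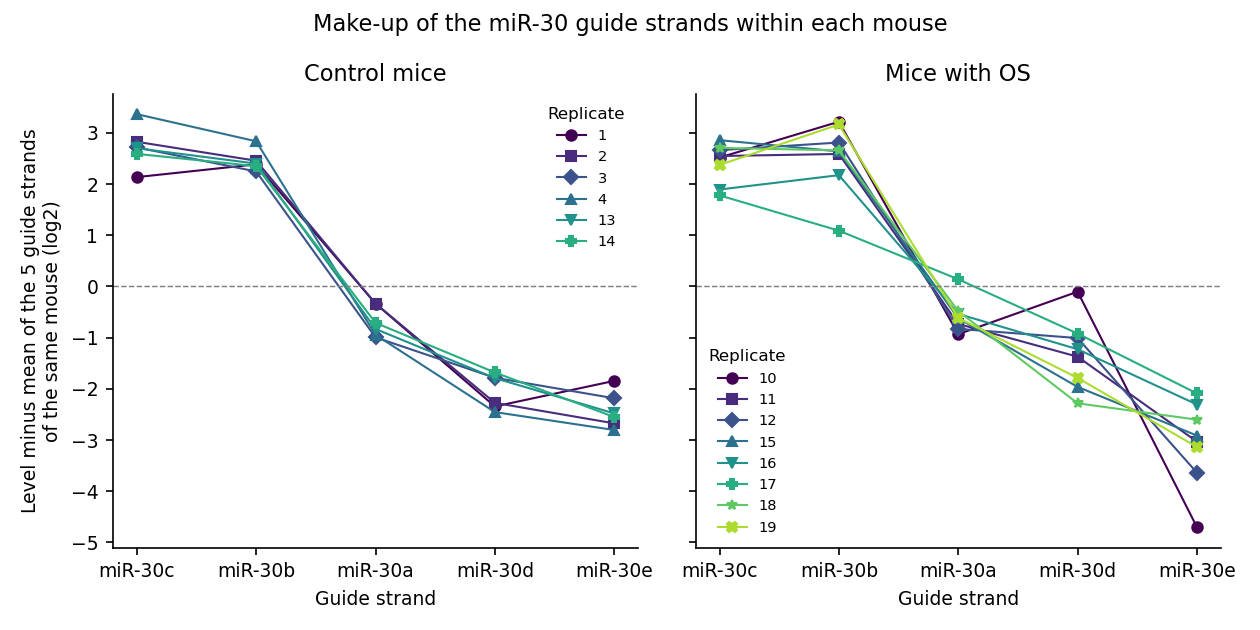
Level of each miR-30 guide strand minus the mean of the 5 guide strands of the same mouse (log2), with 1 line per mouse, for 6 control mice (left) and 8 mice with OS (right). In every mouse miR-30c and miR-30b lie highest. In control replicate 1 miR-30e lies above miR-30d, OS replicate 10 is highest of the OS mice in miR-30d and lowest in miR-30e, and OS replicate 17 is lowest in miR-30c and miR-30b.

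The arms of a hairpin were set against each other within each mouse as guide minus passenger. The guide was far above the passenger for miR-30c, by 9.77 ± 1.20 cycles over miR-30c-2* (SD, n = 9), and for miR-30d by 3.58 ± 0.79 (SD, n = 13). The miR-30c well also reads the guide strand of Mir30c-1, whose passenger had no well, so this pair is not the arms of a single hairpin. Mice in which miR-30c-2* could not be read are left out of its value. For miR-30a the guide was above by 1.95 ± 0.64 cycles, in 14 of 14 mice. miR-30e stood against this, with the passenger read above the guide in 11 of 14 mice and a mean of -0.58 ± 0.73 cycles (SD, n = 14). The passenger wells of miR-30a, miR-30d and miR-30e were on panel II and their guides on panel I. Of the miRNAs with a well on each panel, the mean Cq on panel II minus that on panel I was -0.55 for miR-191, -0.22 for miR-423-3p and -0.11 for miR-103, so that panel II gave the higher reading. With panel II levelled in each mouse by these wells, an alternative added after the data had been seen, guide minus passenger of miR-30e was -0.28 ± 0.71 (SD, n = 14) by their mean, and the passenger stayed above in 11 of 14 mice. By miR-191 alone it was -0.025 ± 0.73 with the passenger above in 8 of 14, so the miR-30e arms read nearly level on that scale. miR-30a stayed above miR-30a* in 14 of 14 mice by each of the repeated wells. Centring each panel on its own mean, which also takes in the different miRNAs each panel holds, moved the miR-30e value the other way, to -1.87 ± 0.65. It narrowed the miR-30a value to 0.65 ± 0.47, with the guide above in 13 of 14 mice. The miR-30d value became 2.32 ± 0.86 (SD, n = 13).

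Between groups, none of the 4 arm differences passed after adjustment over the 4 pairs. The miR-30c difference, with both wells on panel I, was 10.9 ± 1.01 over 3 controls (mean ± SD) and 9.20 ± 0.84 over 6 mice with OS, of which replicate 18 alone lay above the lowest control (difference -1.72, exact permutation test p = 0.0238, adjusted p = 0.0952). With values above Cq 37 kept, in 13 mice, the difference was -1.91 (exact permutation, adjusted p = 0.115). For miR-30e it was -0.22 ± 0.54 in controls and -0.85 ± 0.76 in OS (difference -0.63, exact permutation p = 0.113, adjusted p = 0.226), and 0.057 after panel centring. miR-30a (-0.40, exact permutation p = 0.293) and miR-30d (-0.094, exact permutation p = 0.841) lay within the spread between mice, and the miR-30a difference was -0.15 without OS replicate 10.

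**Figure D4:**
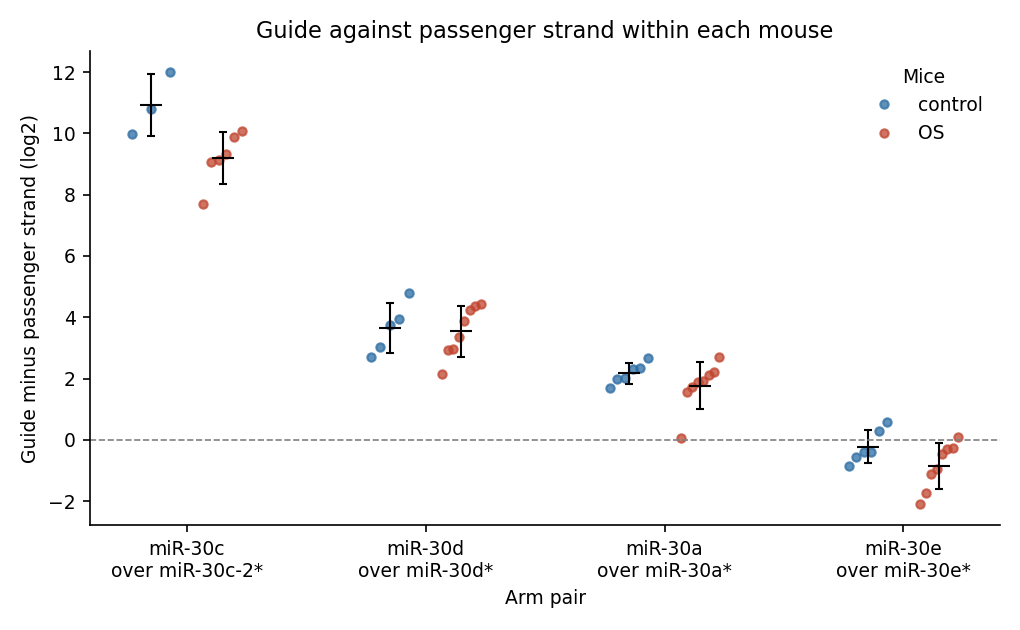
Guide minus passenger strand (log2) within each mouse for the 4 miR-30 arm pairs. Points are mice (control in blue, OS in red), horizontal marks are group means and bars are SD, with 3 control and 6 OS mice for miR-30c over miR-30c-2*. miR-30e lies mostly below the dashed line at 0, where the passenger reads above the guide.

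Steadiness over the mice was described by the geNorm M value, the average variation of a miRNA relative to every other one, so that steadier miRNAs have lower values. miR-30a had an M of 1.03 and was number 5 of 276, and its level varied with an SD of 0.43 over the 14 mice. The other guide strands lay nearer the middle, with an M of 1.19 for miR-30e (number 74), 1.24 for miR-30d (99), 1.27 for miR-30b (118) and 1.27 for miR-30c (120), beside a median of 1.30 over all 276. Of the passenger strands measured in every mouse, miR-30a* was number 80 and miR-30e* number 125. The study's reference miRNAs miR-191, miR-103 and miR-423-3p were numbers 86, 105 and 145 in the same ranking. NormFinder, which adds the variation between groups, gave miR-30a a stability value of 0.322 (number 24) and moved miR-30e to number 155 (0.735) and miR-30c to 143 (0.702). The study chose its reference miRNAs where both methods agreed, among more mice with OS than here. Each reference here was also the mean of a well on each panel, while miR-30a had a well on panel I only. The ranks are therefore no like-for-like comparison with that choice. With 1 mouse left out, miR-30a ranked between 2 (without control replicate 2) and 10 (without control replicate 4 or OS replicate 10) by geNorm.

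**Figure D5:**
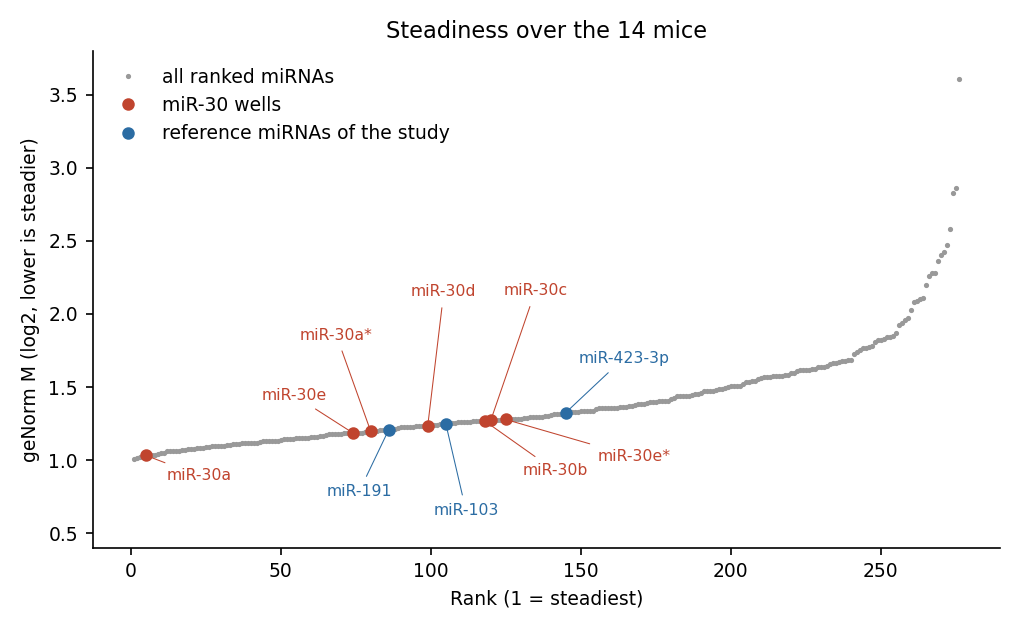
GeNorm M (log2, lower is steadier) of the 276 miRNAs measured in all 14 mice, in rank order. Red points are miR-30 wells, blue points the study's reference miRNAs and grey points all others. miR-30a lies at rank 5, and the other miR-30 wells lie between ranks 74 and 125.

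The mean of the 5 guide strands kept its steadiest ratio with let-7b (SD of the log ratio 0.36 over the 14 mice). Next came rno-miR-7a-1* (0.43), miR-17 of the miR-17-92 cluster (0.44), miR-425 (0.44) and miR-1191 (0.45). By geNorm these were numbers 4, 3, 25, 2 and 40 of 276, so they were also steady against miRNAs in general. No correlation was computed, so the ratios do not show that they rise and fall with the family. The median over the 271 miRNAs ranked was 0.98. Log2 differences of these 5 between OS and control ran from -0.48 to 0.0098, and none passed (limma adjusted p 0.246 to 0.987).

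Runx2, the master factor of bone-forming cells, is the best known target that the family shares with other miRNAs. The list of Runx2-targeting miRNAs, miR-30c among them, had 10 wells for the arms that are known as such, and 4 more for the opposite arms of the same hairpins, miR-30c-2* among these. A mouse-named and a rat-named well among the 10 stand for the same miRNA, and likewise among the 4. The wells are therefore not separate miRNAs, and the medians below count such a miRNA by each of its wells. Of the 10, 1 was lower in OS and none was higher (limma), where 6.44% of all 388 miRNAs were lower and 6.19% higher. This was miR-205 (log2 difference -3.98, limma adjusted p = 1.20e-07), which the study picked from its panel screen of this mouse model. The mice here appear to be part of that screen, so miR-205 is no independent sign of the direction of the list. The other 9 did not pass, with differences from -1.68 for miR-34c (limma adjusted p = 0.0504) to 0.68 for miR-133a (limma adjusted p = 0.422), named after their values were seen as the ends of the range. The median of the 10 was -0.80, and that of all 14 wells, of which none of the 4 opposite arms passed, was -0.64. Among guide strands of other families, 2 of 8 in the let-7 family and 1 of 6 in the miR-15/16 family were lower, and none of 3 in the miR-29 family passed, where 6.44% of all miRNAs were lower, with median log2 differences of -1.05, -0.76 and -0.091. For the 5 miR-30 guide strands the median was -0.37.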

How the data were processed

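The authors deposited Cq values for 768 wells per mouse, not normalized between mice, in log2 units that go down as the amount goes up. By the methods, RNA from filtered plasma was measured on Exiqon mouse panels I and II with a Roche instrument and analyzed in GenEx Pro. The sources used here do not give whether interplate calibration and outlier removal came before the deposit. Wells (392) were named from the deposited comparison table, whose fold changes and p-values were not used. Wells without a name there entered no test, so shares and percentiles of all miRNAs refer to the named ones. All columns of Cq values were used. The methods give more OS mice than the 8 here, and the others were not analysed here.

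Cq values above 37 were treated as missing, miRNAs without a value in 75% or more of mice were dropped, and each mouse was centred on its mean Cq, for which only a missing value took the group mean or Cq 38. Groups were compared in R 4.3.3 by limma 3.58.1 (two-sided, Benjamini-Hochberg over 388 miRNAs, threshold 0.05, no covariate). The methods name a t-test, run as an alternative at the same threshold, without their fold-change rule or stricter adjusted p. Missing values stayed missing in it. Single ratios were compared by exact permutation tests, two-sided, computed with Python 3.11.15, and plots drawn with matplotlib 3.10.9. GeNorm and NormFinder were written from their formulas. A Cq holds no molecule count, and the spread between mice gives the precision.

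Members, lists and alternatives were chosen with earlier results of these data known. The miRNAs named are all miR-30 wells, the 5 with the steadiest ratio to the guide strands, Runx2-targeting miRNAs that passed (and 2 named after their values were seen), plasma markers and reference miRNAs. No miR-30 arm had a rat-named well, so the planned comparison of mouse and rat assays was not made. The code was tested on simulated data.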

Additional observations from a re-analysis of the deposited data

Results flagged for a closer look

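Of 44 groups of values examined (levels, arm differences and guide strand ratios of the miR-30 wells, by group), 10 held a mouse whose distance from its nearest neighbour was large for the range of the group by Dixon's criterion, where chance gives about 1 in 20. The groups share mice and wells and are not separate tests. OS replicate 10 accounted for 5. It was high in miR-30a* (2.66, next 1.25), miR-30d (3.54, next 2.16) and miR-30d* (0.18, next -1.23), low in miR-30e* (-1.15, next 0.96), and had the smallest guide minus passenger difference for miR-30a (0.05, next 1.56). Its haemolysis marker was 1.05, the lowest of the 14 mice, and its share of blank wells 13.9%. Control replicate 1 accounted for 4. It was low in miR-30b (4.75, next 6.12), miR-30c (4.50, next 6.55) and miR-30d (0.023, next 1.50), and its log ratio of miR-30b to miR-30c was 0.25, with the next at -0.24. Its mean Cq was 32.8, the highest of the controls, with 23.4% of wells blank. OS replicate 17 had a log ratio of miR-30a to miR-30b of -0.95, with the next at -2.71. The part of haemolysis and of the amount of RNA in these values was not tested.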

How the results depend on the processing

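The number of miR-30 wells called was 0, and 1 when scaled to all wells, with missing values at the group mean and over miRNAs measured in every mouse (7 members), 2 without both mice that stood apart, and 0 to 2 over the 14 fits that left out 1 mouse, while calls over all miRNAs ran from 17 to 73. With 1 mouse left out the number of guide strand ratios called was 0 to 3. The arm pairs called (0) and the neighbours in level that differed (3 of 4) stayed the same in the alternatives run. The median log2 difference of the members (-0.35) ran from -0.785 to -0.094. The median steadiness percentile of the guide strands (35.9) ran from 20.6 to 42.8, and their median ratio spread (0.80) from 0.69 to 0.87. Signs turned as follows. miR-30a* was -0.0067 scaled to the reference miRNAs, -0.39 with unscaled Cq, -0.39 with panel centring, -0.0014 at a Cq limit of 35, -0.24 with the haemolysis covariate, -0.10 without the mice over the haemolysis limit, -0.36 without both mice that stood apart and -0.20 to 0.23 with 1 mouse left out. miR-30d* was -0.64, -0.42, -0.062, -0.24, -0.32 and -0.23 with unscaled Cq, panel centring, the limit of 35, the covariate, without the mice over the haemolysis limit and without both mice, -0.21 with missing values at the group mean, and -0.23 to 0.14 with 1 mouse left out. With unscaled Cq miR-30c-2* was -0.053 and miR-30d -0.18, and miR-30d was -0.29 without both mice and -0.068 to 0.39 with 1 left out. Arm differences with panel centring were 0.29 for miR-30a, 0.59 for miR-30d and 0.057 for miR-30e, and that of miR-30d was 0.39 without the mice over the haemolysis limit and -0.33 to 0.19 with 1 left out. miR-30c minus miR-30b was -0.0092 without the mice over the haemolysis limit and -0.0023 to 0.11 with 1 left out. The group difference of miR-30a minus miR-30b was -0.031 without the mice over the haemolysis limit and -0.29 to 0.17 with 1 left out, and that of miR-30c minus miR-30e was -0.16 without both mice. The cause of these turns was not tested. Leaving out both mice, levelling panel II by the repeated wells (no arm pair called) and the comparison of guide strand ratios between groups were chosen after seeing the data. Levelling by the mean of those wells turned no sign of an arm difference between groups. By miR-103 alone that of miR-30d was 0.0255. At a Cq limit of 35 the arm difference of miR-30c could not be fitted. No paired analysis was made, because the sample labels give neither litters nor any pairing of mice across the groups.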

Other observations

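Guide strands made at neighbouring loci were compared by their ratios, with no test. The SD of the log ratio over the 14 mice was 0.65 for miR-30a and miR-30c (Mir30a and Mir30c-2), 0.92 for miR-30c and miR-30e (Mir30c-1 and Mir30e) and 0.85 for miR-30b and miR-30d, and the closest pair, miR-30b and miR-30c at 0.44, shares no locus. These are descriptions over pairs that share members, and miR-30c is made at both chromosome 1 and chromosome 4. miR-30b and miR-30c were also the most abundant guide strands, and whether either well also reads the other was not tested.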
